A study of Mus musculus with 15 samples.

Results

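Left ventricular (LV) miRNA of mice that lack AGAT and received homoarginine (AGAT-/-hArg) was compared with that of wild-type (wt) littermates. The comparison took the 5 AGAT-/-hArg and the 5 wt libraries by their labels, 10 of the 15 libraries of the series, and the other 5 were untreated AGAT-/- mice, whose values are given beside it. All mice came from heterozygous breeding on a C57BL/6J background. The AGAT-/-hArg mice carried the knockout and had homoarginine delivered from osmotic mini pumps over 4 weeks, so homoarginine was returned while the synthesis of creatine was still missing. The labels of the wt and AGAT-/- mice name no supplementation, and these AGAT-/- mice are called untreated here. Age and sex are not given in the sources used here. All wt and AGAT-/- libraries were run on lane 8 and all AGAT-/-hArg libraries on lane 2. Lane, supplementation and, against wt, genotype therefore cannot be told apart in what follows. The knocked-out gene, Gatm, is not read by a miRNA library, so its loss could not be checked here.

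AGAT (L-arginine:glycine amidinotransferase) makes homoarginine and the precursor of creatine, the compound that buffers energy in muscle as phosphocreatine. A miRNA is cut from a hairpin precursor, whose 5p or 3p arm is loaded into a silencing complex. It then binds messenger RNAs mainly through its seed, bases 2 to 8, and lowers their translation or stability. Heart muscle is known for mir-1, mir-133, mir-208 and mir-499, which are made in muscle cells, and mir-378a lies in an intron of Ppargc1b, a coactivator of mitochondrial metabolism.

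The sequences below belong to the miRNAs that passed the test and to the rows they resemble, with the seed in capitals, 5′ to 3′, from RefSeq (GRCm38.p6). The first 3 belong to 1 family, and show how little separates the row that rose from its more abundant relatives.
mir-378b-3p: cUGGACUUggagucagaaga
mir-378c-5p: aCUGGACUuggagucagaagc
mir-378d-5p: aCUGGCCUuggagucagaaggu
The next 8 set 4 miRNAs that fell beside the better known miRNA each resembles.
mir-101c-3p: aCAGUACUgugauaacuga
mir-101a-3p: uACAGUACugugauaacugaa
mir-3962-3p: aGGUAGUAguuuguacauuu
let-7g-5p: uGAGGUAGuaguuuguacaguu
mir-215-5p: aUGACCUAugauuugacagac
mir-192-5p: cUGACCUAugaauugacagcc
mir-3966-5p: aGCUGCCAgcuguagaacugu
mir-22-3p: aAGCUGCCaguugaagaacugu
The last 10 are the others past the test except mir-383-5p.
mir-3969-5p: cCCUAAAGuagaaaucacua
mir-5119-3p: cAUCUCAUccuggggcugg
mir-1983-3p: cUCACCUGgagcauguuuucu
mir-499-5p: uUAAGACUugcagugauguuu
mir-31-5p: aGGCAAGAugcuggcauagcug
mir-125b-2-3p: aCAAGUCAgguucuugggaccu
mir-470-5p: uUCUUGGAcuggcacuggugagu
mir-871-5p: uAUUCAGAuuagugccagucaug
mir-871-3p: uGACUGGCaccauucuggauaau
mir-879-5p: aGAGGCUUauagcucuaagcc

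Aligned without gaps, mir-378b-3p differed from mir-378c-5p at 1 of 20 bases and from mir-378d-5p at 2 of 20. All 19 bases of mir-101c-3p were contained in mir-101a-3p. From mir-101b-3p, which held 20422 reads in the 10 libraries, mir-101c-3p differed at 1 of 17 aligned bases. mir-3962-3p differed from let-7g-5p at 1 of 20 bases. mir-3966-5p differed from mir-22-3p at 2 of 21 bases. mir-215-5p differed from mir-192-5p at 3 of 21 bases and shared its seed. mir-3969-5p differed from mir-142b-5p at 3 of 19 aligned bases and from mir-3964-3p at 3 of 18. These relatives held 7 and 31 reads in the 10 libraries. A relative with at most 3 mismatches over at least 16 bases was found for 7 of the 16 miRNAs past the test that had a sequence, against 14.4% of the 416 tested rows with one. The rows of mir-101a-3p, let-7g-5p, mir-192-5p and mir-22-3p are listed at 0 in all 10 libraries. The handling of reads that match more than 1 miRNA is not given in the sources used here, so a row with such a relative is uncertain as to which miRNA its reads came from.

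The table lists 1836 rows, the 2 arms of 918 precursors. Of these, 744 rows held no read in the 10 libraries, 523 held 1 to 10 reads and 569 with more than 10 reads were tested. The study reports some of the arms without a read, such as let-7i-5p and mir-30b-5p, as changed. A row at 0 is therefore not taken as absence of the miRNA. The table held between 389359 and 570492 reads per AGAT-/-hArg library and between 415608 and 486204 per wt library (exact permutation test over all splits of the 10 mice, two-sided p = 0.754, the smallest possible being 0.00794). At this depth 3 reads correspond to between 4.93 and 7.69 CPM (reads after scaling to equal library size by TMM), a limit that covers counting error only. The 4 rows of the mir-378 family took 72.0% ± 0.92 of the listed reads in AGAT-/-hArg mice and 73.5% ± 0.99 in wt mice (SD, n = 5 each; exact permutation p = 0.0397, adjusted over 5 library measures 0.0992). With arms reported by the study at 0 here, this is not a share of all LV miRNA.

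In AGAT-/-hArg mice 17 of 569 tested rows (2.99%) differed from wt at a false discovery rate (FDR) of at most 0.05, 9 of them higher (1.58%) and 8 lower (1.41%). They came from 16 precursors. Changes were 2-fold or more in 10 rows and smaller in 7, while the median log2 fold change of all tested rows was 0.02 (0.015). With libraries scaled by their total counts, 16 rows were higher and 8 lower, and the median of all tested rows moved to 0.12. The values of the 5 mice did not overlap those of the wt mice in 22 of 569 rows (3.87%), among them 13 of the 17. Since LV tissue was taken whole, fewer cells of a type and less RNA per cell cannot be told apart.

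**Figure D1:**
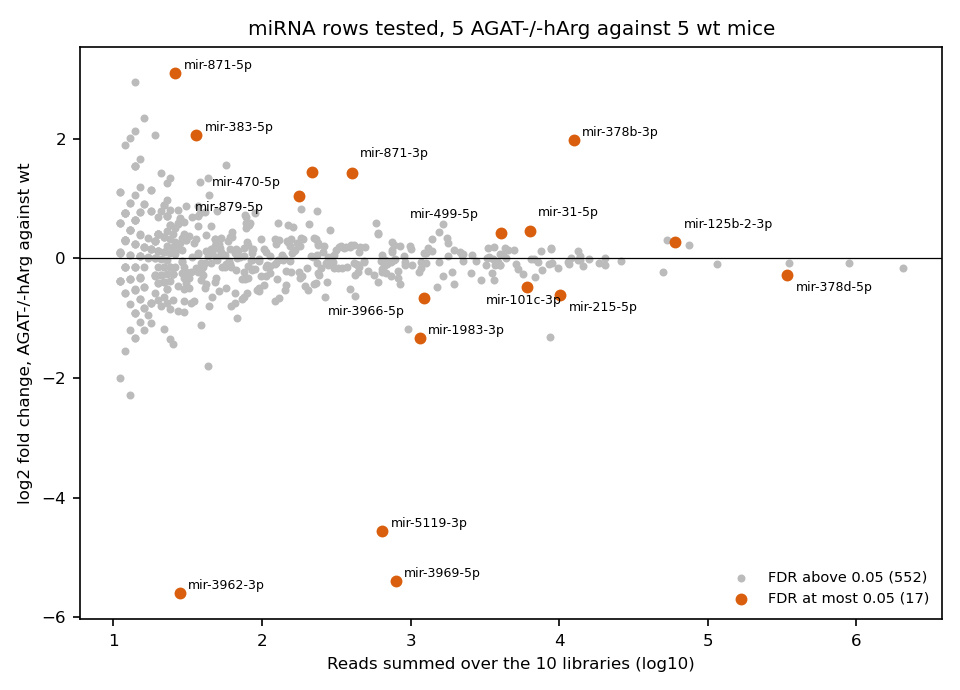
Log2 fold change of AGAT-/-hArg against wt (vertical axis) by the log10 of the reads summed over the 10 libraries (horizontal axis), 1 point per tested row, with the 17 rows past the FDR in orange and named. mir-378b-3p and mir-3969-5p stand far from rows of similar depth, and the change of mir-3962-3p and mir-871-5p rests on few reads.

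Among the miRNAs of the mir-378 family, the row that rose was the scarcest. mir-378b-3p stood at 3979, 4177, 4353, 4578 and 4180 CPM in the AGAT-/-hArg mice. In wt mice there were 1156, 1059, 989, 1118 and 1102 CPM. The groups were far apart, with every AGAT-/-hArg mouse above every wt mouse. The means were 4254 ± 225 and 1085 ± 64.1 CPM (SD, n = 5 each), a 3.92-fold difference (log2 fold change 1.97, SE 0.08, FDR = 1.57e-13). Untreated AGAT-/- mice, with 1064 ± 56.0 CPM, lay at the wt level (log2 fold change -0.04, FDR = 0.965). Between the 2 knockout groups the log2 difference was 2.01 (SE 0.08, FDR = 4.07e-15). As a share of all reads on the family, mir-378b-3p made up 0.617% ± 0.035 in AGAT-/-hArg, 0.145% ± 0.0084 in AGAT-/- and 0.143% ± 0.013 in wt mice. Its precursor lies at chr11:88352773-88352864 (GRCm38, plus strand), in an intron of Msi2 on the opposite strand.

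mir-378d-5p moved the other way and by less. It fell from 82670 ± 7504 CPM in wt to 68440 ± 4788 CPM in AGAT-/-hArg mice (log2 fold change -0.27, SE 0.06, FDR = 0.0129), and the groups overlapped, with AGAT-/-hArg mouse 14 above wt mouse 1. The FDR rose to 0.0501, 0.100 and 0.0554 without wt mouse 3, AGAT-/-hArg mouse 11 or AGAT-/-hArg mouse 15. AGAT-/- mice had 79340 ± 3218 CPM of mir-378d-5p (log2 fold change -0.07 against the same wt mice, FDR = 0.762). For mir-378a-3p, the most abundant row of the table, the log2 fold change was -0.16 (SE 0.05, FDR = 0.0711), and for mir-378c-5p, which is 1 base from mir-378b-3p over the aligned stretch, it was -0.07 (FDR = 0.587). The sign for mir-378c-5p turned positive when libraries were scaled by total counts.

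Of the miRNAs that fell, mir-3969-5p had the clearest separation. The wt mice had 328, 328, 344, 357 and 441 CPM of mir-3969-5p. The AGAT-/-hArg mice had 0, 11.5, 9.42, 12.8 and 7.98 CPM, or between 0 and 7 reads against 140 to 179 in wt libraries. No AGAT-/-hArg mouse came near the lowest wt mouse, and the AGAT-/- mice, with 385 ± 71.3 CPM, did not share the loss (log2 fold change against wt 0.08, FDR = 0.942). The fall in AGAT-/-hArg against wt was 41.95-fold (log2 fold change -5.39, SE 0.27, FDR = 1.80e-12), and against AGAT-/- the log2 difference was -5.47 (SE 0.26, FDR = 3.52e-13). The precursor maps to chr5:87595902-87595993 (GRCm38, minus strand), outside annotated genes. As mir-3969-5p has relatives with 3 mismatches, it is uncertain which miRNA its reads came from.

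mir-3962-3p was not detected in AGAT-/-hArg mice. The 5 AGAT-/-hArg libraries held 0 reads of it, the wt libraries 4, 5, 8, 8 and 3, and the AGAT-/- libraries 5, 0, 4, 7 and 9. AGAT-/-hArg and wt libraries did not overlap, whereas 1 AGAT-/- library was at 0 like the AGAT-/-hArg libraries, and the reads are few throughout. With 3 reads set as the limit per AGAT-/-hArg library, the level was at least 2.03-fold lower than in wt (FDR = 6.61e-04). The test against AGAT-/- gave an FDR of 0.0258, with groups that overlap. The precursor is at chr1:194822001-194822064 (GRCm38, plus strand), with no overlapping gene.

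mir-5119-3p was nearly lost in both knockout groups. In wt mice it stood at 219, 152, 256, 117 and 695 CPM. The AGAT-/-hArg mice had 37.5, 6.57, 4.71, 2.57 and 7.98 CPM, and the AGAT-/- mice between 2.08 and 30.1 CPM. Every wt mouse lay above every knockout mouse, with wt mouse 5 and AGAT-/-hArg mouse 11 well above their groups. The log2 fold change was -4.55 (SE 0.54, FDR = 8.19e-06) in AGAT-/-hArg and -4.91 (SE 0.56, FDR = 2.09e-05) in AGAT-/- mice, both against the same wt libraries. Without wt mouse 5 the log2 fold change of AGAT-/-hArg was -3.94, and without AGAT-/-hArg mouse 11 it was -5.57. The precursor is in an intron of Cdk12, a kinase of RNA polymerase II, on the same strand (chr11:98262606-98262662, GRCm38).

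mir-1983-3p also fell in AGAT-/-hArg mice. It was measured at 399, 230, 381, 342 and 481 CPM in wt mice. In AGAT-/-hArg mice it was at 179, 159, 137, 105 and 146 CPM. The groups did not overlap, wt mouse 2 being the closest to the AGAT-/-hArg mice. The log2 fold change was -1.33 (SE 0.18, FDR = 4.91e-05), and that of AGAT-/- against the same wt mice was -0.98 (SE 0.19, FDR = 0.00455). Its precursor maps to chr13:21896918-21897049 (GRCm38, minus strand), with no annotated gene over it.

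mir-215-5p, which shares its seed with mir-192-5p and belongs to a family known from epithelia and from the p53 response, was lower in AGAT-/-hArg than in wt mice. The wt mice had 2784, 2648, 2691, 2847 and 2613 CPM. The AGAT-/-hArg mice had 1596, 2025, 1978, 1708 and 1589 CPM. The wt values lay close together and above all AGAT-/-hArg values. The fall was 1.52-fold (log2 fold change -0.61, SE 0.09, FDR = 2.65e-04), and AGAT-/- mice stood at 1680 ± 137 CPM (log2 fold change -0.71 against the same wt mice, FDR = 2.09e-05). For the other arm, mir-215-3p, it was -0.68 (FDR = 0.471), and the neighbouring mir-194-1-3p, with 6 reads in AGAT-/-hArg and 12 in wt, one of -1.07 (FDR = 0.565). The mir-215 precursor is at chr1:185313581-185313692 (GRCm38, plus strand), in an exon of the antisense gene 2010103J01Rik and opposite an intron of Iars2.

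mir-101c-3p belongs to the mir-101 family, known for repressing the histone methyltransferase Ezh2. The wt mice had 1494, 1495, 1523, 1848 and 1504 CPM. The AGAT-/-hArg mice had 1051, 1106, 1208, 1313 and 973 CPM. The groups did not overlap, and wt mouse 4 stood apart from the other 4. The log2 fold change was -0.48 (SE 0.10, FDR = 0.00764) against wt and -0.56 (SE 0.09, FDR = 0.00118) against AGAT-/- mice, which had 1672 ± 208 CPM. For mir-101b-3p, the family's most abundant row, the log2 fold change was -0.0008 (FDR = 0.996), with a sign that changed among the alternatives. mir-3966-5p fell from 335 ± 51.2 to 211 ± 25.4 CPM (log2 fold change -0.66, SE 0.13, FDR = 0.00559) without overlap. AGAT-/- mice had 295 ± 23.4 CPM of mir-3966-5p (log2 fold change -0.20 against the same wt mice, FDR = 0.615). Between the knockout groups the log2 difference was -0.47 and did not pass (FDR = 0.12), though their values did not overlap. The mir-101c precursor is at chr9:3038669-3038743 (minus strand) and that of mir-3966 at chr10:97423478-97423562 (plus strand, both GRCm38), neither within a gene.

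Of the muscle miRNAs, mir-499-5p rose. It is made from an intron of the myosin gene Myh7b (chr2:155622880-155622958, GRCm38, plus strand) and takes part in the control of slow muscle genes. The AGAT-/-hArg mice had 961, 1020, 916, 1049 and 1115 CPM. Values in wt mice were 727, 872, 697, 760 and 702 CPM. All AGAT-/-hArg mice were above all wt mice, wt mouse 2 being the nearest. This was a log2 fold change of 0.43 (SE 0.10, FDR = 0.0129), and AGAT-/- mice had 977 ± 80.1 CPM (log2 fold change 0.36 against the same wt mice, FDR = 0.0647). The FDR was 0.0501 without wt mouse 3, 0.0651 without wt mouse 5 and 0.0554 without AGAT-/-hArg mouse 15. The other 8 tested rows of mir-1, mir-133, mir-208 and mir-499 did not pass, with log2 fold changes between -0.36 and 0.76. The 3p rows of mir-1a, mir-133a and mir-208 are listed at 0 in all 10 libraries, so the heart muscle label was checked on mir-499 and on their 5p rows, which held 163 reads of mir-1a-1-5p and 226 of mir-208a-5p in wt libraries.

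mir-31-5p, a miRNA studied in cell invasion and in vascular cells, rose as well. It was measured at 1727, 1739, 1384, 1590 and 1508 CPM in AGAT-/-hArg mice. Values in wt mice were 1097, 1008, 1246, 1247 and 1178 CPM. The groups did not overlap. This was a log2 fold change of 0.46 (SE 0.10, FDR = 0.00764), with 1728 ± 168 CPM in AGAT-/- mice (log2 fold change 0.57 against the same wt mice, FDR = 0.00171). The precursor lies at chr4:88910557-88910662 (GRCm38, minus strand) in an exon of a long noncoding RNA, AL805899.1. mir-125b-2-3p, the arm opposite the well known mir-125b, rose slightly from 12010 ± 1190 to 14440 ± 610 CPM (log2 fold change 0.27, SE 0.07, FDR = 0.0422), with wt mouse 4 above AGAT-/-hArg mouse 13. It passed in the fits without wt mouse 4 or AGAT-/-hArg mouse 13, and leaving out any other mouse gave an FDR between 0.0797 and 0.135. AGAT-/- mice had 14690 ± 669 CPM of mir-125b-2-3p (log2 fold change 0.28 against the same wt mice, FDR = 0.0523). Its precursor is in an intron of Mir99ahg at chr16:77646273-77646343 (GRCm38, plus strand).

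Among X-chromosomal miRNAs known for their expression in testis, 3 of 19 tested rows rose, against 1.58% of all tested rows. These were mir-871-3p, mir-871-5p and mir-470-5p. The mir-871 rows are arms of the same precursor, and mir-871-5p passed the read filter mainly on AGAT-/-hArg reads (24 against 2 in wt). The count is therefore not a test of the group. mir-871-3p was at 79.1, 70.7, 130, 249 and 134 CPM in AGAT-/-hArg mice. The wt mice had 37.2, 75.0, 16.8, 78.6 and 37.0 CPM of it. The groups overlapped, and AGAT-/-hArg mouse 14 was the highest. The log2 fold change was 1.42 (SE 0.34, FDR = 0.0233), against 1.61 (FDR = 0.00218) for AGAT-/- and the same wt mice. Without wt mouse 1, 3 or 5 or AGAT-/-hArg mouse 14 or 15 the FDR lay between 0.0501 and 0.0918.

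mir-470-5p had 43.7, 44.4, 44.7, 128 and 89.7 CPM in AGAT-/-hArg mice and 41.6, 32.8, 12.6, 30.4 and 7.40 CPM in wt mice. The groups did not overlap, but 3 AGAT-/-hArg mice were close to the highest wt mouse. The log2 fold change was 1.45 (SE 0.37, FDR = 0.0313), and 1.80 (FDR = 9.68e-04) for AGAT-/- against the same wt mice. It ranged from 0.0824 to 0.118 in FDR without wt mouse 3 or 5 or AGAT-/-hArg mouse 14 or 15. mir-871-5p counted 24 reads in AGAT-/-hArg and 2 in wt libraries, a ratio of 10.8 with a 95% counting interval of 2.68 to 94.1 (FDR = 0.0277), and its FDR lay between 0.0535 and 0.0896 without wt mouse 2, 3 or 5 or AGAT-/-hArg mouse 11, 14 or 15. AGAT-/- libraries held 37 reads of mir-871-5p (log2 fold change 3.76 against the same wt mice, FDR = 0.00216). The precursors of mir-871 (chrX:66810428-66810504) and mir-470 (chrX:66813951-66814025, both GRCm38, minus strand) lie within 10 kb of each other. Of the 19 tested rows of the group 17 had a log2 fold change above 0, with a median of 1.11. Of all 569 tested rows 291 were above 0, and their median was 0.02 (0.015). The median of the group ranged from 0.20 to 1.38 over the 20 alternative fits, and 0 to 4 of its rows passed. Some rows passed the read filter mainly on AGAT-/-hArg reads, such as mir-871-5p, mir-465b-1-5p (11 against 2 in wt) and mir-465c-1-3p (11 against 3). The filter thus partly sets the count of rows past the FDR, the sign count and the median, and arms and copies of a miRNA are not independent rows. The most abundant row of the group, mir-201-5p, stood at 0.21 (FDR = 0.565). The summed level of all 40 listed rows of the group, scaled by total reads without TMM, was 617 to 884 CPM in AGAT-/-hArg, 613 to 854 CPM in AGAT-/- and 383 to 532 CPM in wt mice.

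The last 2 rows that rose were scarce. mir-383-5p, from an intron of Sgcz (chr8:38252133-38252202, GRCm38, minus strand), had 4 to 8 reads per AGAT-/-hArg library and 0 to 3 per wt library (log2 fold change 2.06, SE 0.54, FDR = 0.0382). It passed in the fits without wt mouse 2, where the log2 fold change was 2.67, or without AGAT-/-hArg mouse 13, and leaving out any other mouse gave an FDR between 0.0518 and 0.113. Each AGAT-/- library held 0 to 4 reads of mir-383-5p (log2 fold change 0.13 against the same wt mice, FDR = 0.972). mir-879-5p, from an intron of 9330182L06Rik (chr5:9375704-9375779, GRCm38, plus strand), rose from 24.7 ± 7.93 to 50.4 ± 17.7 CPM with overlap (log2 fold change 1.04, SE 0.28, FDR = 0.0474). Its FDR was between 0.0831 and 0.142 without wt mouse 1, 3 or 5 or AGAT-/-hArg mouse 11, 12 or 14. AGAT-/- mice had 35.5 ± 17.8 CPM of mir-879-5p (log2 fold change 0.52 against the same wt mice, FDR = 0.602).

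**Figure D2:**
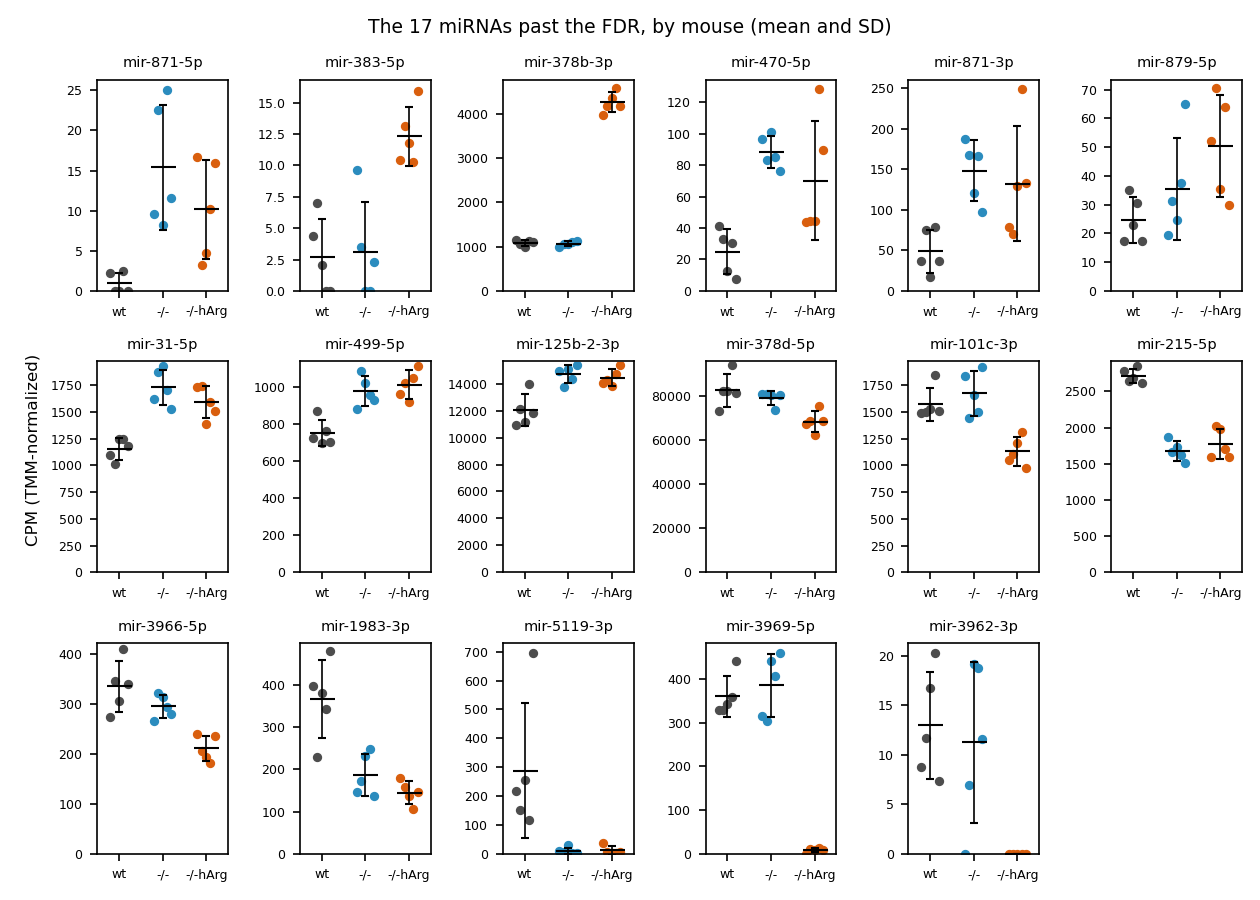
CPM of each of the 17 miRNAs past the FDR (vertical axes, each starting at 0) in the 5 wt, 5 AGAT-/- (-/-) and 5 AGAT-/-hArg (-/-hArg) mice, with mean and SD. In mir-378b-3p and mir-3969-5p the AGAT-/- mice sit with the wt mice, and in mir-5119-3p and mir-215-5p they sit with the AGAT-/-hArg mice.

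The untreated AGAT-/- libraries were run on the lane of the wt libraries. AGAT-/- differed from wt in 12 of 562 rows (2.14%), and AGAT-/-hArg differed from AGAT-/- in 4 of 580 rows (0.69%), which were mir-378b-3p, mir-3969-5p, mir-3962-3p and mir-101c-3p. Since comparisons with wt share the wt libraries, their values are set side by side only. Of the miRNAs past the FDR in AGAT-/- against wt, some did not pass in the fit of the AGAT-/-hArg and wt libraries. mir-298-5p, from the imprinted Gnas region, stood 1.03 above wt on the log2 scale (FDR = 0.00163) in AGAT-/- and 0.57 (FDR = 0.0711) in AGAT-/-hArg mice. In AGAT-/-hArg mice it passed with DESeq2 (FDR = 0.0154), total counts (0.0301) and rows of at least 1 read (8.25e-04). It also passed without AGAT-/-hArg mouse 13 (0.0317). The difference between the knockout groups was -0.46 (FDR = 0.367). mir-130a-5p had 1.26 and 0.69, mir-881-3p 2.08 and 1.56, mir-7688-5p 0.92 and 0.58, and mir-1966-3p 1.64 and 0.33 as log2 fold changes in AGAT-/- and AGAT-/-hArg mice. The direct tests of these 4 gave FDRs between 0.147 and 0.777, so a difference between the knockout groups was not shown.

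**Figure D3:**
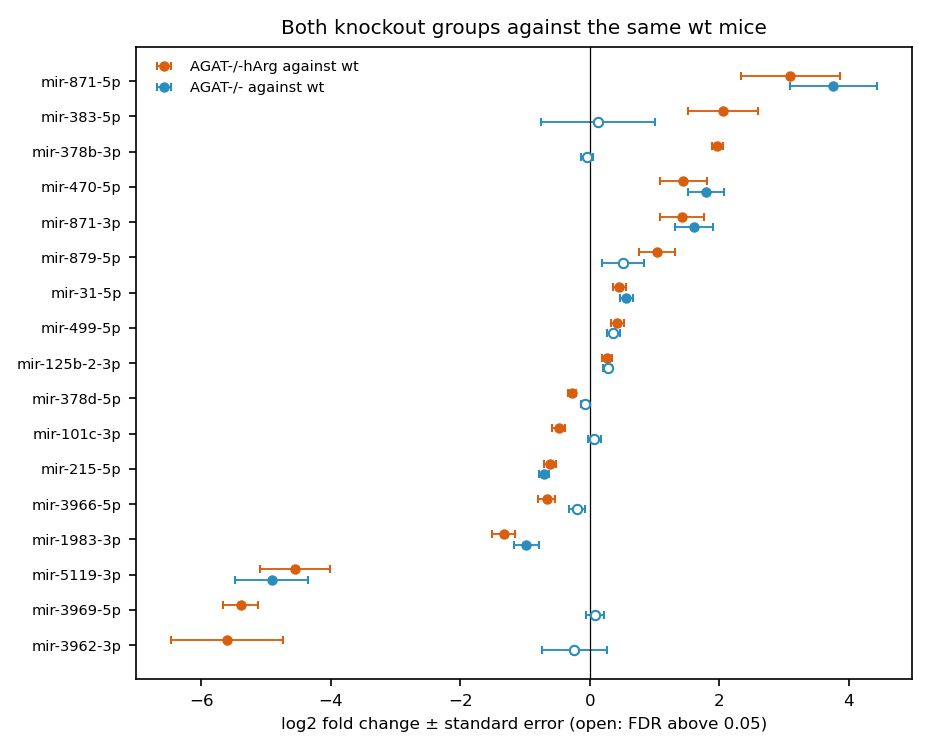
Log2 fold change with standard error (horizontal axis) of the 17 miRNAs in AGAT-/-hArg (orange) and AGAT-/- (blue) mice against the same 5 wt mice, with open points where the FDR is above 0.05. For mir-3962-3p the fitted fold change depends on the prior count, since all AGAT-/-hArg libraries held 0 reads.

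Beside the rows past the FDR, the lowest FDRs were those of mir-1981-5p at 0.0686 (log2 fold change -0.62, without overlap) and of mir-881-3p, mir-34c-3p, mir-298-5p and mir-378a-3p, all at 0.0711. In the alternative fits that kept every mouse, mir-1981-5p passed in 4. In these fits mir-881-3p and mir-298-5p passed in 3 each, and mir-34c-3p and mir-378a-3p in 1 each. mir-34c-3p, of a family induced by p53, had 0 to 4 reads in AGAT-/-hArg libraries and 2 to 12 in wt libraries (log2 fold change -1.81). mir-210-5p, whose precursor is induced in hypoxia, differed by 0.32 on the log2 scale (FDR = 0.161), and the groups did not overlap. It passed with DESeq2 (FDR = 0.0485), total counts (0.0348), more than 10 reads in every library (0.0359) and the filterByExpr filter (0.0346). Of the miRNAs linked by the study to cardiovascular disease, a list chosen on these samples, 1 of 7 tested rows rose, mir-31-5p, against 1.58% of all tested rows, and the other 6 did not pass. The list holds both arms of each precursor, whichever arm the study followed, and the rows of mir-30b-5p, mir-135a-2-5p, mir-148a-3p and let-7i-5p are listed at 0 in all 10 libraries. The study reports these arms as changed in sequencing of AGAT-/- and wt mice, so the zeros are not taken as absence. miR-204, also a candidate of the study, is not in the list used here. The median of the 7 log2 fold changes was 0.53. mir-130a-3p stood at 0.82 (FDR = 0.0730), mir-135a-2-3p at -0.46 (FDR = 0.490) and mir-30b-3p at 0.25 (FDR = 0.490). With total counts (FDR = 0.0401), rows of at least 1 read (0.0479) and filterByExpr (0.0451), mir-130a-3p passed. It also passed without wt mouse 1 (0.0219).

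miRNA groups that mark other cells had 0 rows past the FDR in the fit of 10 libraries, against 2.99% of all tested rows. At that share, groups of 3 to 10 rows, as here, would hold few or none. For red blood cells, 5 rows were tested, 4 of them above 0, with a median log2 fold change of 0.06. The rows of mir-451a were at 0. mir-144-5p stood at -0.03 (FDR = 0.936). mir-486b-5p, with 13 reads in AGAT-/-hArg and 1 in wt libraries, stood at 2.95 (FDR = 0.123). Without AGAT-/-hArg mouse 11, 1 red blood cell row passed as higher. The summed level of all 10 listed red blood cell rows was 6695 to 8021 CPM in AGAT-/-hArg and 6510 to 7086 CPM in wt mice. Summed levels of groups cover all listed rows, tested or not, and were scaled by total reads, without TMM. With that scaling the median log2 fold change of all tested rows was 0.12, against 0.02 in the fit. For white blood cells 10 rows had a median of -0.11, 8 of them below 0, with mir-146a-5p at -0.07 (FDR = 0.887). All 18 listed rows of white blood cells summed to 7135 to 8933 against 6629 to 8005 CPM. The rows of mir-223-3p and mir-150-5p were at 0. The 10 rows of endothelium and smooth muscle had a median of -0.06, against whose sign their most abundant row, the smooth muscle miRNA mir-145a-3p, stood at 0.31 (FDR = 0.217). That row passed with total counts (FDR = 0.0269), with rows of at least 1 read (0.00871) and without AGAT-/-hArg mouse 12 (0.0422). All 18 listed rows of endothelium and smooth muscle, tested or not, summed to 18460 to 26770 CPM in AGAT-/-hArg and 15890 to 20000 CPM in wt mice. Neural rows (12 listed, 3 tested, median -0.12) summed to 187 to 256 against 181 to 253 CPM. Rows of liver and epithelium (10 listed, 3 tested, median 0.21) summed to 119 to 268 against 111 to 254 CPM. Both groups were scarce, and the row of the liver miRNA mir-122-5p was at 0. The part of other cells in the results was not tested.

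In the remaining groups, 0 of 5 rows of the fibrosis-related mir-21 and mir-29 passed (median log2 fold change -0.24), and mir-21a-5p, known from cardiac fibroblasts and named here after its values were seen, stood at -0.43 (FDR = 0.0781). mir-21a-5p passed with DESeq2 (FDR = 0.0381), more than 10 reads in every library (0.0484) and filterByExpr (0.0374). The let-7 and mir-98 family had 0 of 9 rows past the FDR (median -0.02), with 14 rows at 0. None of the 31 rows of the imprinted Dlk1-Dio3 cluster (median -0.07), the 72 of the Sfmbt2 cluster (median 0.07), the 11 of the mir-322 and mir-503 cluster (median -0.09) or the 9 of mir-17-92 and its paralogues (median 0.04) passed. At the 2.99% of all tested rows that passed, groups of these sizes would hold few or none. All 160 listed Sfmbt2 rows together held 2992 reads in the 10 libraries. The medians of the let-7, Dlk1-Dio3, mir-322 and endothelial groups turned positive when libraries were scaled by total counts. By edgeR's unadjusted p, 71 of all 569 rows were under 0.05.

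**Figure D4:**
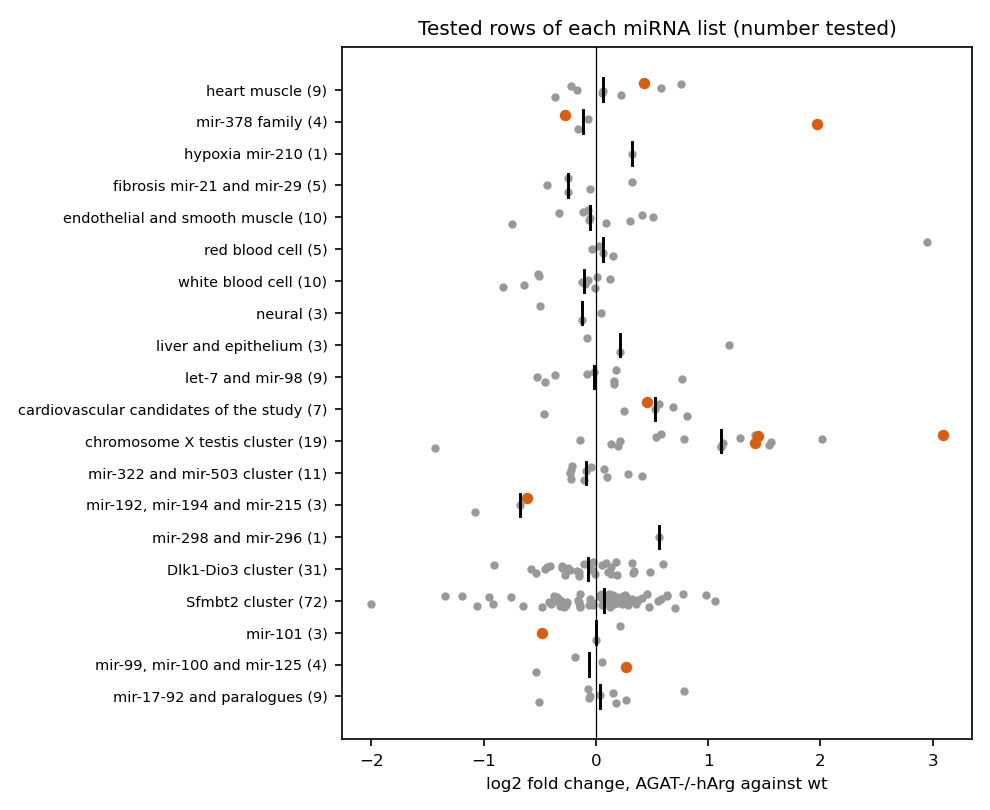
Log2 fold change of AGAT-/-hArg against wt (horizontal axis) for each tested row of 20 miRNA groups, with the number tested in brackets, rows past the FDR in orange and the median as a black line. The X-chromosomal group, some of whose rows passed the read filter mainly on AGAT-/-hArg reads, has its median at 1.11. The Dlk1-Dio3 and Sfmbt2 groups lie around 0.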

How the data were processed

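Small RNA libraries of 15 LV samples (TruSeq Small RNA kit) were analysed, each from a separate mouse. The authors mapped reads with the CLC Genomics Workbench to miRBase, whose release is not given in the sources used here, and the deposited values are raw counts of reads per miRNA arm, without normalization. The submitters' processing notes name GRCm38. Rows whose reads in the 10 libraries added up to more than 10 were tested with edgeR 4.0.16 (R 4.3.3; TMM, glmQLFit, glmQLFTest) and Benjamini-Hochberg adjustment over all tested rows. CPM of single rows used TMM factors of all 15 libraries, and summed levels of groups were scaled by total reads only. Library measures were compared by exact permutation (scipy 1.17.1, Python 3.11.15). Positions came from GENCODE M21 (GRCm38), with 881 of 918 precursors placed, and 1253 of 1836 rows matched a mature sequence of RefSeq.

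Alternatives were DESeq2 1.42.0, limma-voom (limma 3.58.1), DESeq2's size factors, total counts, 3 other filters (filterByExpr, more than 10 reads in every library, or any read), all 15 libraries in 1 fit, leaving out the 3 most abundant rows, summing copies of a mature miRNA, an FDR of 0.01 and leaving out each mouse. Named miRNAs are all rows past the FDR, their other arms and neighbours within 10 kb, the 5 closest to passing, the 12 of AGAT-/- against wt, the 5 most abundant rows, the candidates of the study and the row with most reads of each list. The members and lists were chosen with earlier results of these data known. On simulated counts of this comparison (569 rows, 539 tested), the test recovered 46.8% of 188 rows changed 2-fold, 88.3% of the 77 with a mean above 10 reads, and 0% of its calls were false. The simulation changed a far larger share of rows than passed in the data, and held no difference between lanes. Its 0% therefore does not carry over to the rows past the FDR.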

Additional observations from a re-analysis of the deposited data

Results flagged for a closer look

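Of 44 groups of 5 mice examined, 4 held a mouse whose gap to its nearest neighbour took more than 0.710 of the group's range, and chance alone flags about 1 group in 20. For mir-101c-3p, wt mouse 4 had 1848 CPM, against 1494 to 1523 CPM in the other wt mice (0.918 of the range). For mir-5119-3p, AGAT-/-hArg mouse 11 had 37.5 CPM, against 2.57 to 7.98 CPM (0.845). In the same miRNA, wt mouse 5 had 695 CPM, against 117 to 256 CPM (0.76). wt mouse 5 also had the highest mir-3969-5p level, 441 CPM against 328 to 357 CPM (0.74).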

How the results depend on the processing

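The count of 17 miRNAs became 28 when rows with at least 1 read were tested and 9 at an FDR of 0.01, and lay between 10 and 20 when each mouse was left out in turn. It was 10 without wt mouse 3, 11 without wt mouse 5 and 10 without AGAT-/-hArg mouse 15. It lay between 13 and 24 under the other 9 alternatives, and DESeq2, with 22, gave no adjusted p for 320 rows. The miRNAs mir-378b-3p, mir-3969-5p, mir-5119-3p, mir-1983-3p, mir-215-5p, mir-3962-3p, mir-3966-5p, mir-101c-3p and mir-31-5p passed in every fit that gave them an FDR. Without the 3 most abundant rows the FDR was 0.0501 for mir-378d-5p and 0.0703 for mir-125b-2-3p. mir-383-5p, in 1 fit of all 15 libraries, and mir-879-5p, there and in limma-voom, did not pass either. Over named miRNAs past the FDR, 278 alternative values kept their call and 48 lost it, all in the same direction. Of the 33 other named miRNAs with a test, 560 values stayed short of the FDR in the same direction, 32 passed and 36, in 9 miRNAs, changed sign without passing. DESeq2 gave no adjusted p for 10 values, which are left out of these counts. With total counts, positive values were found for mir-378c-5p (0.04), mir-151-3p (0.0243), mir-322-5p (0.0232), mir-144-5p (0.0779), mir-146a-5p (0.0381), let-7j-5p (0.0951), mir-434-3p (0.0741), mir-101b-3p (0.1125) and mir-92a-2-3p (0.0538). let-7j-5p was also positive with filterByExpr (0.003), more than 10 reads in every library (0.0153) and at least 1 read (0.0088). mir-101b-3p was so with DESeq2 (0.0079), its size factors (0.0081), the same 3 filters (0.0182, 0.0294 and 0.0231), without the 3 most abundant rows (0.0049) and with copies summed (0.0118). Leaving out a mouse gave from -0.114 to 0.0267 for mir-144-5p, -0.0541 to 0.0479 for let-7j-5p, -0.1413 to 0.0652 for mir-434-3p, -0.0608 to 0.0714 for mir-101b-3p and -0.1185 to 0.0587 for mir-92a-2-3p. The cause was not tested. Depth limits the rows with few reads. No paired analysis was possible because the litter of each mouse is not given in the sources used here.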
